A study of Mus musculus with 6 samples.

Results

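The 38 genes described here are 2 listed classes, of the hypoxia response and of glucose use, in mammary tumour cells growing in mouse lung. The first class holds 18 genes of the hypoxia response outside glycolysis: HIF subunits, oxygen-sensing hydroxylases and HIF target genes. The second holds 20 genes of glucose uptake, glycolysis and lactate export. Members were chosen by gene symbol, and each was read from the probe set that carries that symbol alone and has the highest mean over the 6 arrays. Of the 38, 34 had such a probe set, among 18193 genes in all. These 34, 17 in each class, all passed the filter on low values and were among the 13090 genes tested. The other 4 members are Bnip3l, Gpi1, Gapdh and Eno1. The 3 probe sets that carry Bnip3l name it together with a pseudogene, so no value is given for it. Gapdh was read only on 3 control probe sets, and Gpi1 and Eno1 were not analysed here.

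GFP-tagged cells of MVT1, a mouse mammary tumour line known to derive from a tumour driven by Myc and VEGF transgenes, were given by vein to FVB/N mice, and GFP-positive tumour cells were sorted from the lungs. The 3 groups of 2 arrays each are GW2580 at 2 weeks, vehicle at 2 weeks and vehicle at 1 week after injection. GW2580, which blocks the kinase of the CSF1 receptor, was gavaged daily at 160 mg per kg from 1 week after injection, and the other groups are labelled as controls. All 3 groups share the tagged line. Each vehicle group came from 2 mice, while the sources used here do not say how many mice gave the GW2580 RNA, so that p-values may in part measure technical spread. The receptor is made chiefly by monocytes and macrophages. Values are RMA log2 expression values on which a difference of 1 is a doubling, and they are given array by array. Differences come from a limma fit over all 6 arrays with their standard errors (SE), and a gene counts as called where its p, adjusted by Benjamini-Hochberg over the 13090 genes, is under 0.05.

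Cells sense oxygen through prolyl hydroxylases (the EGLN enzymes), which mark the alpha subunits of the hypoxia-inducible factors HIF-1 and HIF-2 for destruction when oxygen is plentiful. When oxygen falls the subunits persist, enter the nucleus and bind a short DNA core in which CGTG follows A or G, turning on genes for mitophagy, pH control, matrix modification, glucose uptake and glycolysis. The subunits are therefore regulated mainly as proteins, and their mRNA need not change. Tumour cells also run glycolysis in the presence of oxygen, so that glycolytic genes can be high whatever the oxygen supply.

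The epithelial keratin gene Krt8 read between 13.52 and 13.82 on all arrays, while Cdh1, a further epithelial marker, was below the filter. Of the 11 mammary epithelium markers tested, 9 had differences below 0 between 1 and 2 weeks in vehicle mice, with a median of -0.23. Groups were apart lower in 7, against 25.2% of all genes, and 1 was called lower, against 2.71%. Between GW2580 and vehicle at 2 weeks, 7 of the 11 were above 0, against 41.7% of all genes, with 0 called. The 10 fibroblast and smooth muscle markers tested averaged 7.23 and 6.55 on the GW2580 arrays, 6.79 and 6.84 on the 2-week vehicle arrays, and 8.08 and 7.12 on the 1-week vehicle arrays. The 16 macrophage and monocyte markers tested averaged between 6.83 and 7.22 on every array. A pair of arrays stood apart. Replicate 1 of the 1-week vehicle group had the highest fibroblast level, and replicate 2 of the 2-week vehicle group had low signal toward the 5' end of control transcripts. There the beta-actin control probe sets gave a 3' minus 5' difference of 1.20, where the remaining arrays gave 0.38 to 0.50.

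Of the hypoxia genes outside glycolysis, 5 of 17 tested rose between 1 and 2 weeks in vehicle-treated mice, and 0 fell. They were the mitophagy gene Bnip3, the carbonic anhydrase genes Car12 and Car9, the stress gene Ndrg1 and the collagen hydroxylase gene P4ha2. In this comparison 6.45% of all genes tested were called, 3.74% higher and 2.71% lower. The median difference of the 17 was 0.56 log2 units, against 0.02 over all 13090 genes. All 17 but Hif1a had differences above 0, as had 52.9% of all genes. Groups did not overlap in 13 of the 17, all higher at 2 weeks, where 31.5% of all genes were apart in that direction.

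Bnip3 encodes a mitochondrial membrane protein that marks mitochondria for removal. It read 11.64 and 12.31 on the GW2580 arrays, 11.40 and 11.69 on the 2-week vehicle arrays, and 8.87 and 10.20 on the 1-week vehicle arrays. All 4 of the 2-week arrays lay above both 1-week arrays, and the 1-week arrays were the farthest apart. The rise in vehicle mice was 2.01 (SE 0.40), or 4.03-fold (limma adjusted p 0.0329).

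Car9 and Car12 encode carbonic anhydrases of the cell surface, which hydrate carbon dioxide and take part in export of acid. Car9 read 6.37 and 6.97 on the GW2580 arrays, 6.42 and 6.87 on the 2-week vehicle arrays, and 5.59 and 5.53 on the 1-week vehicle arrays. Car12 read 5.53 and 6.44 on the GW2580 arrays, 7.13 and 7.32 on the 2-week vehicle arrays, and 5.34 and 5.67 on the 1-week vehicle arrays. The 2 genes shared the rise with time, but on the GW2580 arrays Car9 spanned its 2-week vehicle values and Car12 lay below them. At 2 weeks in vehicle mice Car9 rose by 1.09 (SE 0.22, limma adjusted p 0.0342) and Car12 by 1.71 (SE 0.27, limma adjusted p 0.0193).

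Ndrg1, a cytoplasmic protein gene induced by hypoxia and other stress, read 12.18 and 12.82 on the GW2580 arrays, 12.00 and 12.63 on the 2-week vehicle arrays, and 10.54 and 11.11 on the 1-week vehicle arrays. All 5 of its probe sets were higher at 2 weeks than at 1 week in vehicle mice, by 0.91 to 1.63, and the brightest rose by 1.49 (SE 0.29, limma adjusted p 0.0309). P4ha2, which encodes a catalytic subunit of collagen prolyl hydroxylase, read 9.16 and 9.81 on the GW2580 arrays, 8.95 and 9.09 on the 2-week vehicle arrays, and 7.78 and 8.12 on the 1-week vehicle arrays. Its groups also did not overlap, and the rise at 2 weeks in vehicle mice was 1.06 (SE 0.22, limma adjusted p 0.0357).

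These calls did not all hold with a vehicle array left out. Such a fit has 1 array in a group compared, so that fewer genes of any kind can pass. The lost calls are therefore not read as a result about these genes. The median difference of the 17 lay between 0.51 and 0.72 with each array left out in turn. Of 10 fibroblast and smooth muscle markers, 1 had a difference above 0, with a median of -0.68 and 0 called, and their part in the result was not tested. In bulk samples fewer cells of a type and less RNA per cell cannot be told apart.

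**Figure D1:**
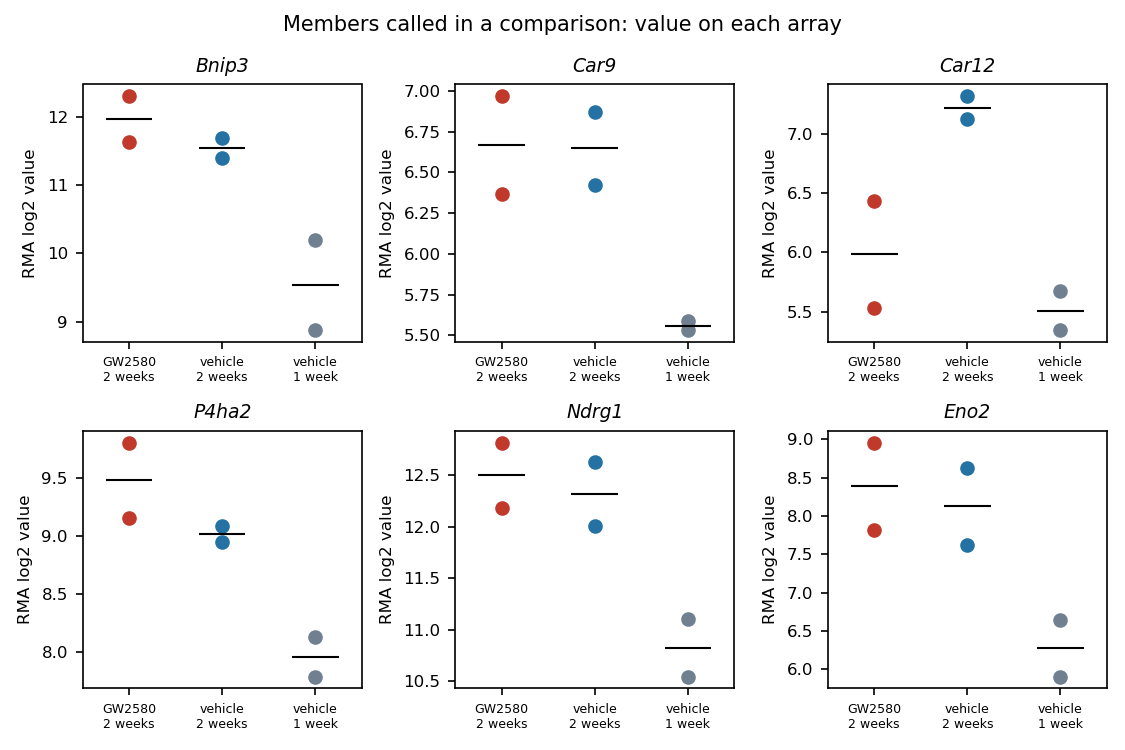
RMA log2 value (vertical axis, 1 scale per gene, not starting at 0) of the 6 members called in any comparison, on each array of the GW2580 2-week, vehicle 2-week and vehicle 1-week groups; points are arrays and bars are means of 2. Both groups at 2 weeks lie above 1 week in every panel except that of Car12, where a GW2580 array at 5.53 lies among the 1-week arrays.

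The promoters of the called members other than Ndrg1 are shown because these genes rose together between 1 and 2 weeks, and a reader can look for the HIF core in their letters. Sequences are RefSeq's, 250 bases before to 50 after the start, 5' to 3' on the gene's strand. Capitals mark ACGTG and GCGTG on either strand, and a palindromic CACGTG counts as ACGTG on both strands.
Bnip3, GRCm38.p6 chr7:138909457-138909756, minus strand: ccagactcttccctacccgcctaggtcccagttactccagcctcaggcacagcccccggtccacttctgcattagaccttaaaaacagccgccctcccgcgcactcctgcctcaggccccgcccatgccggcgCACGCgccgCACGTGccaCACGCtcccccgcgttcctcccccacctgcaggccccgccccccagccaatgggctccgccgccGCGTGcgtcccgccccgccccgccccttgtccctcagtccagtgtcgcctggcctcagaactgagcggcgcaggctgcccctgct
Eno2, GRCm38.p6 chr6:124769624-124769923, minus strand: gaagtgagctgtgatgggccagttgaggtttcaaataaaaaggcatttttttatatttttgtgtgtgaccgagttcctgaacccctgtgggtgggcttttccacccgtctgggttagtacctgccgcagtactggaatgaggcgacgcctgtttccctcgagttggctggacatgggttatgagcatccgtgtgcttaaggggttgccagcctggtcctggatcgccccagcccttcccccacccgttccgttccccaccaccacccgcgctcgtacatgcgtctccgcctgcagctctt
Car12, GRCm38.p6 chr9:66713436-66713735, plus strand: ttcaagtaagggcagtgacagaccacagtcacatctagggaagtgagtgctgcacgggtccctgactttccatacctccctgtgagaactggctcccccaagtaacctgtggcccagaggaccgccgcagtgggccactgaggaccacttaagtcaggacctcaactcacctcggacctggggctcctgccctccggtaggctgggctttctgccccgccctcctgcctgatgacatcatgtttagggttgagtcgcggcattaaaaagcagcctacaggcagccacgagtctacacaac
P4ha2, GRCm38.p6 chr11:54100674-54100973, plus strand: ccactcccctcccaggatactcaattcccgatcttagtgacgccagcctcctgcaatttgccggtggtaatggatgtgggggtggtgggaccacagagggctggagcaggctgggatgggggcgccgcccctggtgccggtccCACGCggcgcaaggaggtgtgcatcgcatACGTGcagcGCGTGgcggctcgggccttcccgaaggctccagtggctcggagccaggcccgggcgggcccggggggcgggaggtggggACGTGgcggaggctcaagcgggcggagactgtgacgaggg
Car9, GRCm38.p6 chr4:43506776-43507075, plus strand: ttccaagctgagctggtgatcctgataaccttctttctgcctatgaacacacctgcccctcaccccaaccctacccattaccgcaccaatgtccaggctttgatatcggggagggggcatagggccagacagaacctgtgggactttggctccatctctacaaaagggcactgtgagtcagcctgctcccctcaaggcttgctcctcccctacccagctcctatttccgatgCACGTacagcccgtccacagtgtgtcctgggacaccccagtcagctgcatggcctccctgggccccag
The Bnip3 window held ACGTG 2 times, as the 2 strands of a single palindrome at positions -108 and -107 from the start, and GCGTG 3 times. The P4ha2 window held each motif 2 times, and the Car9 window held ACGTG once, on the opposite strand at position -18. The Eno2 and Car12 windows held neither. By the first promoter listed per gene, 13 of 14 hypoxia members and 13 of 19 glycolysis members with an entry held at least one of the motifs, against 43.8% of 27025 genes. For ACGTG alone the counts were 10 of 14 and 9 of 19, against 19.7% of genes. Known HIF targets were listed as members, so shares above those of all genes can follow from that choice and are no result of these arrays. Of the 5 called members with an entry, 3 held at least one of the motifs. A match in the window is a description of its letters and not a site of binding.

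The remaining hypoxia members did not pass the test between 1 and 2 weeks. Of the subunits, Hif1a read between 10.80 and 10.98 on all 6 arrays, with a difference of -0.04 (95% interval -0.31 to 0.24) in vehicle mice, and its dimmer probe sets differed by -0.11 and -0.35. Epas1, which encodes the HIF-2 alpha subunit, differed by 0.54 (SE 0.16, limma adjusted p 0.0846) on its brightest probe set and by -0.16 on the other. The hydroxylase genes Egln1 and Egln3, themselves HIF targets that feed back on the pathway, differed by 0.45 (SE 0.18) and 0.28 (SE 0.21). Between GW2580 and vehicle at 2 weeks the EGLN genes differed by 0.12 (95% interval -0.29 to 0.53) and 0.03 (-0.46 to 0.53).

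Further targets differed in the same direction without passing. Pdk1, the kinase that holds pyruvate dehydrogenase inactive, differed by 0.85 (SE 0.29, limma adjusted p 0.127), and its dimmest probe set above the filter, at a mean of 5.21, by 2.17. Ankrd37 differed by 0.82 (SE 0.34), the histone demethylase gene Kdm3a by 0.76 (SE 0.20, limma adjusted p 0.066), the mTORC1 inhibitor gene Ddit4 by 0.56 (SE 0.20), and the mitochondrial gene Higd1a by 0.49 (SE 0.21). The small differences were those of P4ha1 at 0.21 (SE 0.21), Adm, a vasodilator peptide gene, at 0.10 (SE 0.13), and Lox, the collagen crosslinking enzyme gene, at 0.10 (SE 0.24).

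**Figure D2:**
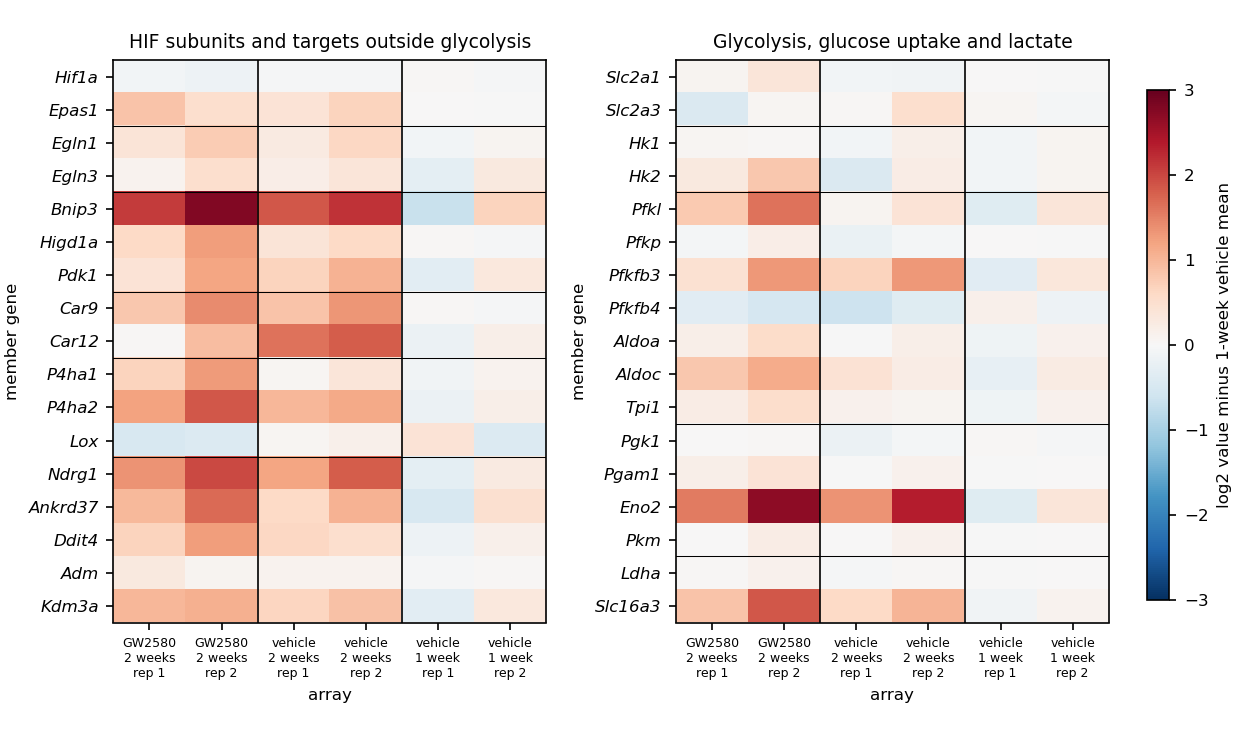
Log2 value of each of the 34 members minus its mean on the 1-week vehicle arrays (colour, red above and blue below), for each array (columns: GW2580 2 weeks, vehicle 2 weeks, vehicle 1 week); lines divide roles. Bnip3, Ndrg1 and Eno2 are red on every 2-week array, whereas the rows of Hif1a, Hk1, Pgk1 and Ldha are near white throughout.

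In the glycolysis class 1 of 17 members was called between 1 and 2 weeks, a share near the 6.45% of all genes called. Eno2, which encodes the gamma isoform of enolase known from neurons, rose by 1.85 (SE 0.44), or 3.61-fold (limma adjusted p 0.0477), and 0 of 17 fell. The median difference of the 17 was 0.08, and 11 of them had differences above 0, against 52.9% of all genes. Groups did not overlap in 4 that were higher at 2 weeks and in 4 that were lower, against 31.5% and 25.2% of all genes. Eno2 read 7.82 and 8.96 on the GW2580 arrays, 7.62 and 8.63 on the 2-week vehicle arrays, and 5.90 and 6.64 on the 1-week vehicle arrays. Its groups at 2 weeks overlapped each other and lay above 1 week. With any vehicle array left out Eno2 lost its call and differed by 1.35 to 2.36. Such a fit has 1 array in a group, so that fewer genes of any kind can pass.

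The members next in size were the regulator gene Pfkfb3 and the lactate exporter gene Slc16a3. Pfkfb3, whose product makes fructose 2,6-bisphosphate and so speeds phosphofructokinase, read 7.92 and 8.76 on the GW2580 arrays, 8.11 and 8.76 on the 2-week vehicle arrays, and 7.13 and 7.78 on the 1-week vehicle arrays. Its difference in vehicle mice was 0.98 (SE 0.33, limma adjusted p 0.123), but 0.13 on its second probe set. That probe set read 6.09 and 5.45 on the 2-week vehicle arrays, lower on replicate 2, the array with the low 5' signal. The part of that signal in the disagreement was not tested. Slc16a3, for the monocarboxylate transporter MCT4, read 6.83 and 7.84 on the GW2580 arrays, 6.57 and 7.00 on the 2-week vehicle arrays, and 5.86 and 6.08 on the 1-week vehicle arrays, a difference of 0.81 (SE 0.30, limma adjusted p 0.153) between the vehicle groups. Neither passed the test, although the vehicle groups did not overlap in either gene. Pfkfb4, a second gene of the same enzyme family, differed by -0.49 (SE 0.16, limma adjusted p 0.113).

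The genes of the shared glycolytic steps differed by small amounts over time. Several were among the bright genes: Ldha, Pkm and Pgk1 averaged 13.29, 13.27 and 13.42 on the 2-week vehicle arrays. The highest value of an array was 14.58 to 14.71, and whether levels this near the top narrow the differences was not tested. Ldha, for the lactate dehydrogenase subunit that favours lactate, differed by 0.00 (95% interval -0.28 to 0.28) between 2 and 1 weeks. Pkm, for pyruvate kinase, differed by 0.08 (-0.23 to 0.38), Pgk1, for phosphoglycerate kinase, by -0.11 (-0.40 to 0.17), and Pgam1, for phosphoglycerate mutase, by 0.06 (-0.25 to 0.38). For aldolase and triosephosphate isomerase, Aldoa differed by 0.08, Aldoc by 0.33 and Tpi1 by 0.11. At the entry to the pathway, the glucose transporter genes Slc2a1 and Slc2a3 differed by -0.09 and 0.27, the hexokinase genes Hk1 and Hk2 by 0.05 and -0.11, and the phosphofructokinase genes Pfkl and Pfkp by 0.24 and -0.13. The 3' control probe set of Gapdh read 13.78 and 13.89 on the GW2580 arrays, 13.73 and 13.68 on the 2-week vehicle arrays, and 13.73 and 13.77 on the 1-week vehicle arrays. Its 5' control probe set read 12.76 on replicate 2 of the 2-week vehicle group, against 13.84 to 14.01 on the others.

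That array also divided probe sets of single genes. Of 31 further probe sets above the filter, from 18 members, 25 had the sign of their gene's brightest one in the time comparison. Second probe sets of Hk1 and Pfkp read 9.04 and 9.67 on replicate 2 of the 2-week vehicle group, against 10.00 and 10.53 on replicate 1, and so gave time differences of -0.64 and -0.53. The brightest probe sets of both genes were instead higher on replicate 2 than on replicate 1. The part of the low 5' signal in this was not tested.

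**Figure D3:**
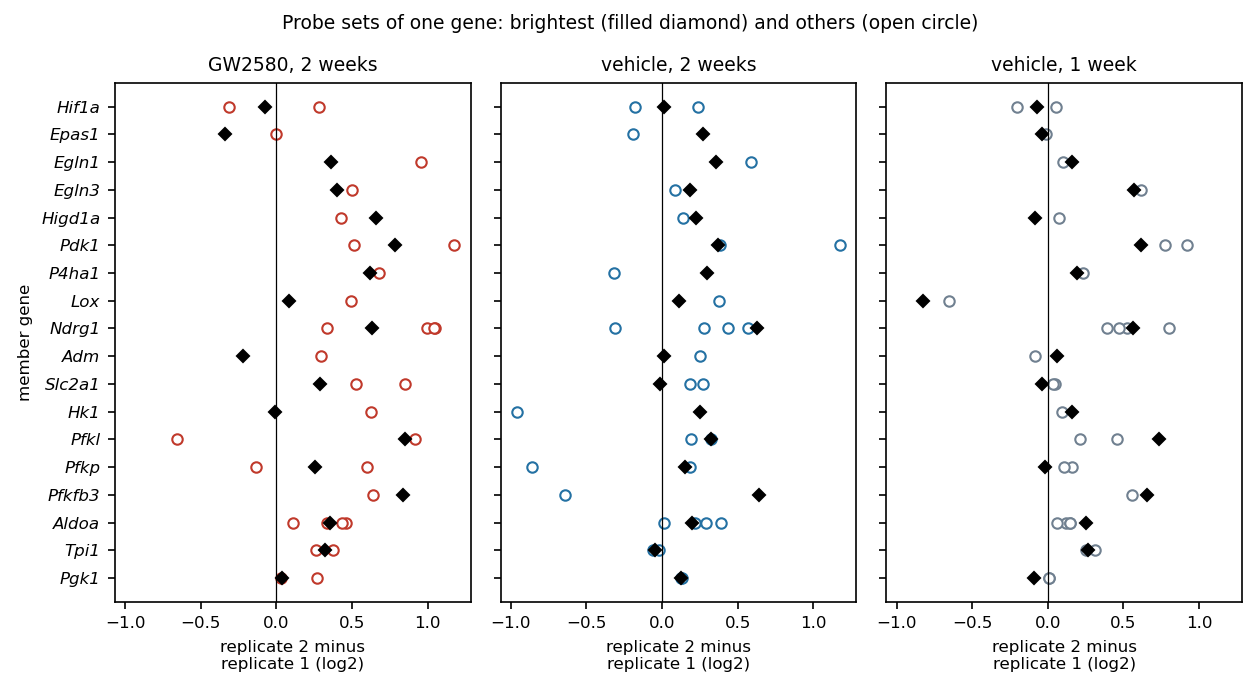
Replicate 2 minus replicate 1 (horizontal axis, log2) for every probe set above the filter of the 18 members that have more than 1, in each group; filled diamonds are the brightest probe sets, which give the reported values, and open circles the others. In the 2-week vehicle group the second probe sets of Hk1 and Pfkp lie at -0.96 and -0.86, far left of their diamonds.

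Between GW2580 and vehicle at 2 weeks 0 of 34 members were called by limma, where 0.367% of all 13090 genes were called, 0.0688% higher and 0.298% lower. At an unadjusted p under 0.05 there were 5 members, P4ha1, Hk2, Pfkl and Aldoc higher and Car12 lower, against 18% of all genes. Hypoxia members had a median difference of 0.13, with 13 of 17 above 0, and glycolysis members one of 0.23, with 14 of 17 above 0. The median over all genes was -0.05, and 41.7% were above 0. The hypoxia median depended on single arrays. Omitting a GW2580 array gave 0.32 (replicate 1) or 0.10 (replicate 2), and omitting an array of vehicle at 2 weeks gave 8e-06 (replicate 1) or 0.30 (replicate 2). The groups did not overlap in 10 of 17 glycolysis members, all higher with GW2580, against 18.3% of all genes apart in that direction. In the hypoxia class 4 were apart higher and 3 lower, against 31.5% of all genes apart lower.

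Car12 had the largest difference of the 34 members between GW2580 and vehicle, at -1.24 (SE 0.27, 95% interval -1.87 to -0.61, limma adjusted p 0.0907). Its other probe sets, both below the filter at means of 4.24 and 4.23, differed by -0.07 and -0.24 with GW2580. Over time in vehicle mice they differed by 0.32 and 0.12, so the Car12 result rests on 1 probe set. Car12 alone of the members had a called rise with time and a lower level with GW2580. The 2 differences share the 2-week vehicle arrays, with opposite sign, and are not independent. Both GW2580 arrays, at 5.53 and 6.44, lay below both 2-week vehicle arrays, at 7.13 and 7.32. Without replicate 2 of GW2580 the difference was -1.69, and without replicate 1 it was -0.79, each from a single GW2580 array. The markers of lung epithelium differed in both directions between these groups, with 6 of 14 tested above 0 and a median of -0.24. The 4 surfactant genes had differences of -2.07 to -0.46, and Sftpc among them read 7.90 and 7.19 on the GW2580 arrays, 9.98 and 9.25 on the 2-week vehicle arrays, and 8.33 and 9.29 on the 1-week vehicle arrays. The airway genes Scgb1a1, Scgb3a2 and Cyp2f2 differed by 1.97, 1.64 and 1.14 and were not called. Sftpa1 and Sftpd were called lower and 0 of the 14 higher. The 14 averaged 7.10 and 6.39 on the GW2580 arrays, 6.85 and 6.88 on the 2-week vehicle arrays, and 7.41 and 7.02 on the 1-week vehicle arrays, and their part in the Car12 difference was not tested.

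Lox, the other hypoxia member with a lower level of some size, read 5.80 and 5.88 on the GW2580 arrays, 6.33 and 6.44 on the 2-week vehicle arrays, and 6.69 and 5.87 on the 1-week vehicle arrays. Its difference with GW2580 was -0.55 (SE 0.24, limma adjusted p 0.283), and the 1-week arrays lay apart, replicate 1 above every other array and replicate 2 between the GW2580 arrays.

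For the other members that had risen with time, the interval of the difference between GW2580 and vehicle included 0. The difference was 0.43 (95% interval -0.48 to 1.35) for Bnip3, 0.02 (-0.49 to 0.53) for Car9, 0.18 (-0.48 to 0.85) for Ndrg1 and 0.26 (-0.75 to 1.28) for Eno2. For P4ha2 it was 0.47 (-0.04 to 0.98), with groups that did not overlap. These intervals do not show that the levels were alike. The second probe set of Epas1 gave 0.69, with 6.35 and 6.35 on the GW2580 arrays, 5.76 and 5.57 on the 2-week vehicle arrays, and 5.83 and 5.82 on the 1-week vehicle arrays, where the brightest gave 0.13.

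The larger positive differences with GW2580 were in genes with small differences over time. Both differences use the 2-week vehicle arrays, and an error in those arrays moves them in opposite directions, so they are not independent. P4ha1, for a second catalytic subunit of the collagen hydroxylase, read 9.89 and 10.51 on the GW2580 arrays, 9.28 and 9.58 on the 2-week vehicle arrays, and 9.13 and 9.32 on the 1-week vehicle arrays. Pfkl, for the liver form of phosphofructokinase, read 10.36 and 11.21 on the GW2580 arrays, 9.67 and 9.99 on the 2-week vehicle arrays, and 9.22 and 9.95 on the 1-week vehicle arrays. In both genes the GW2580 arrays were the 2 highest of the 6. The GW2580 minus vehicle difference was 0.76 (SE 0.21, limma adjusted p 0.133) for P4ha1, with 1.22 on its second probe set, and 0.96 (SE 0.32, limma adjusted p 0.18) for Pfkl, with 1.05 and 0.78 on its others.

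Hk2, the inducible hexokinase gene, read 10.93 and 11.43 on the GW2580 arrays, 10.20 and 10.84 on the 2-week vehicle arrays, and 10.54 and 10.72 on the 1-week vehicle arrays. Aldoc, for an aldolase isoform, read 9.62 and 9.93 on the GW2580 arrays, 9.25 and 9.02 on the 2-week vehicle arrays, and 8.56 and 9.06 on the 1-week vehicle arrays. Both were higher on each GW2580 array than on any vehicle array. Their GW2580 minus vehicle differences were 0.66 (SE 0.24, limma adjusted p 0.208) and 0.64 (SE 0.20, limma adjusted p 0.156).

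The rest of the pathway differed by less on the brightest probe sets. Slc16a3 differed by 0.55 between GW2580 and vehicle, Ankrd37 by 0.51, Higd1a by 0.44, Ddit4 by 0.40, Slc2a1 by 0.32, Aldoa by 0.29, Kdm3a by 0.27, Tpi1 by 0.26, Pgam1 by 0.23, Pfkp by 0.21, Pgk1 by 0.14, Epas1 by 0.13, Adm by 0.09, Ldha by 0.09, Pfkfb4 by 0.07 and Pkm by 0.04. Slc2a3 differed by -0.45, Pfkfb3 by -0.09, Hif1a by -0.07, Pdk1 by -0.05 and Hk1 by -0.01. Other probe sets above the filter gave 0.83 and 0.63 for Pfkp, 0.88 for Hk1 and -0.36 for Adm, the last at a mean of 4.97. The 0.83 of Pfkp and the 0.88 of Hk1 came from the second probe sets that read low on replicate 2 of the 2-week vehicle group. Of the 31 further probe sets, 25 had the sign of their gene's brightest in this comparison. The size of the glycolysis median varied with the array left out, while it stayed above 0. It was 0.10 without replicate 2 of GW2580 and 0.35 without replicate 1. Leaving out an array of vehicle at 2 weeks gave 0.13 (replicate 1) and 0.29 (replicate 2, which had the low 5' signal). The 17 glycolysis members averaged 10.71 and 11.11 on the GW2580 arrays, 10.53 and 10.80 on the 2-week vehicle arrays, and 10.34 and 10.53 on the 1-week vehicle arrays.

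**Figure D4:**
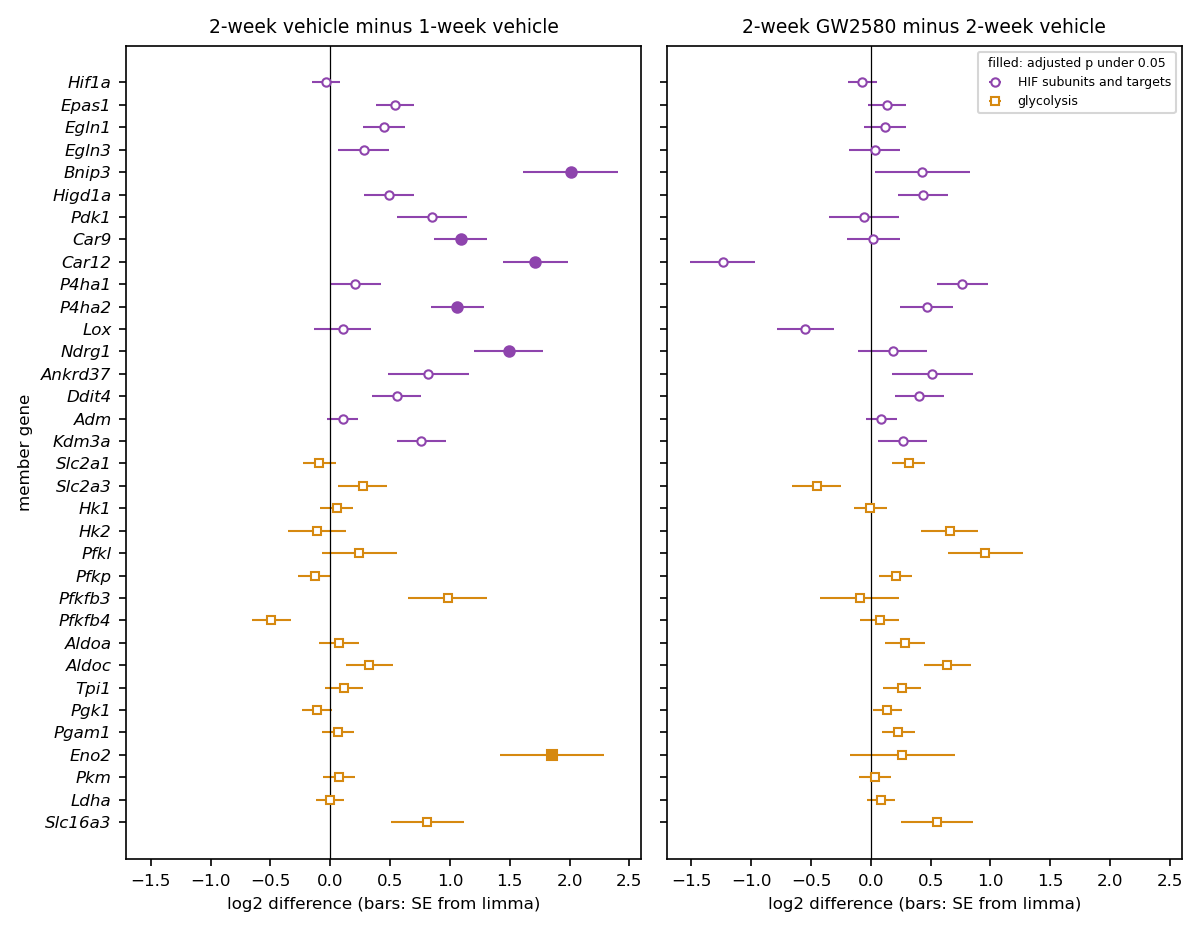
Log2 difference of each member (horizontal axis; bars are SE) for 2-week vehicle minus 1-week vehicle on the left and 2-week GW2580 minus 2-week vehicle on the right; circles are hypoxia members, squares glycolysis members, and filled symbols have an adjusted p under 0.05. Filled symbols appear on the left panel alone, for Bnip3, Car9, Car12, P4ha2, Ndrg1 and Eno2, and Car12 is farthest left on the right panel at -1.24.

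GW2580 at 2 weeks was also compared with vehicle at 1 week, where inhibitor and time differ together. One member, P4ha2, rose, by 1.53 (SE 0.22, limma adjusted p 0.037), where 0.512% of all genes were called, 0.359% higher and 0.153% lower. P4ha2 differed by 1.21 without replicate 2 of GW2580, and by 1.36 and 1.70 without replicate 1 or 2 of the 1-week group. It lost its call in these fits, which have 1 array in a group compared, so that fewer genes of any kind can pass. The call was also lost without either array of 2-week vehicle, a group outside the comparison. Bnip3 differed by 2.44 (SE 0.40, limma adjusted p 0.0503), Eno2 by 2.12 (SE 0.44), Ndrg1 by 1.68 (SE 0.29), Slc16a3 by 1.36 (SE 0.30) and Pfkl by 1.20 (SE 0.32). Car12 differed by 0.48 (95% interval -0.15 to 1.10). The median was 0.93 for hypoxia members and 0.29 for glycolysis members, against -0.02 for all genes, and 15 of 17 in each class were above 0, against 45.8% of all genes. Groups did not overlap in 13 hypoxia and 11 glycolysis members that were higher with GW2580 and in 1 of each class that was lower, against 18.8% and 27.9% of all genes. This comparison shares arrays with each of the others.

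A pair of lists of neighbouring genes, which hold none of the members, was read in the same way. Of 43 other HIF pathway genes tested, 3 rose and 0 fell between 1 and 2 weeks, where 3.74% of all genes were called higher and 2.71% lower. They were Selenbp1, a selenium-binding protein gene (2.75, SE 0.41), the lipoprotein receptor gene Vldlr (1.22, SE 0.18) and the cyclin-family gene Ccng2 (0.87, SE 0.21). Between GW2580 and vehicle limma called 0 of 43, and the smallest p-values were those of Vegfa and Bhlhe40. Vegfa, the vascular growth factor gene, read 8.44 and 9.22 on the GW2580 arrays, 7.67 and 7.69 on the 2-week vehicle arrays, and 7.64 and 7.81 on the 1-week vehicle arrays. The GW2580 arrays were above all others, at a difference of 1.15 (SE 0.23, limma adjusted p 0.079), and whether the probe sets read the line's VEGF transgene was not tested. Bhlhe40, a transcriptional repressor gene, differed by 0.83 (SE 0.18, limma adjusted p 0.0851). Selenbp1 was the single gene of this list called for GW2580 against 1 week, at 2.82.

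Of 35 other genes of glucose metabolism tested, 2 rose and 3 fell between 1 and 2 weeks, against the same 3.74% of all genes called higher and 2.71% called lower. Fbp2, for a fructose bisphosphatase that works against phosphofructokinase, rose by 1.22 (SE 0.22), and Pdk2, for a further pyruvate dehydrogenase kinase, rose by 1.09 (SE 0.15). Pdp2, for a phosphatase that activates pyruvate dehydrogenase, fell by 0.71, Taldo1, of the pentose phosphate pathway, fell by 0.63, and the malic enzyme gene Me1 fell by 0.61. Fbp2 was the gene of this list called between GW2580 and vehicle: it read 7.59 and 8.28 on the GW2580 arrays, 9.34 and 9.37 on the 2-week vehicle arrays, and 8.02 and 8.25 on the 1-week vehicle arrays, and fell by 1.42 (SE 0.22, limma adjusted p 0.0483). As in Car12, the 2-week vehicle arrays, which both comparisons use, were the 2 highest. Pdk2 was called for GW2580 against 1 week, at 1.10.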

How the data were processed

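The arrays are Affymetrix whole-genome mouse arrays, hybridised with cRNA from 2 µg of total RNA. The deposited table gives 45101 probe sets as log2 values from RMA, per the submitters' processing notes, with no version stated in the sources used here. RMA's quantile step removes any shift that most genes share. No read depth exists for arrays, so the number of arrays sets the precision.

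Tests omitted the 64 control probe sets. In GEO's platform annotation 34945 of the other 45037 carry a single gene symbol, 932 carry several and 9160 carry none. By gene identifier 34741 matched RefSeq's table for GRCm38.p6, and 0 symbols changed. Each gene was represented by its brightest probe set, and genes averaging below 4.97, the 40th percentile, were not tested. The test was limma (version 3.58.1, R 4.3.3) with a mean per group over all 6 arrays and eBayes without trend, at 3 residual and 4.97 prior degrees of freedom. The procedure was tested on simulated data.

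Values are given by array for called members and for the 3 largest differences of each class in each comparison. From the neighbouring lists, called genes are named (at most 5 per comparison), or the 2 with the smallest p. The second probe set of Epas1, the further probe sets and the marker genes were named after their values were seen. Members and lists were chosen with earlier results of these data known. Alternatives were the replicate number as a block, fits of the compared arrays alone, other filters, probe set rules, scaling and moderation, and leaving out each array.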

Additional observations from a re-analysis of the deposited data

How the results depend on the processing

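Each group has 2 arrays, and leaving out single arrays ended most calls, and a missed threshold does not show that a gene did not change. Of 315 summary values recomputed under 15 alternatives, 255 kept within their limits and 60 moved, and 0 called members changed sign.

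With the replicate number of the labels as a block (replicate block), calls between 2 and 1 week in vehicle mice were 8 hypoxia and 3 glycolysis members. In that comparison 3362 of all 13090 genes had an unadjusted limma p under 0.05 with the block, and 3088 without it. The number of all genes called there with the block is not given, so the member counts cannot be set against it. Between GW2580 and vehicle there were 154 genes (48 without the block), with 1 hypoxia member lower, Car12, and 1 glycolysis member higher. Between GW2580 and 1-week vehicle there were 182 genes (67 without), with 8 hypoxia and 4 glycolysis members higher. Over all genes tested, deviations of same-numbered arrays correlated at 0.002 between the vehicle groups. They correlated at 0.292 between 1-week vehicle and GW2580, and at 0.009 between 2-week vehicle and GW2580. The numbers are therefore not taken to pair the samples, although most members read higher on replicate 2 in every group. The part of that shared offset in the calls with the block was not tested.

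In the time comparison, hypoxia members called higher were 3 on all probe sets. Glycolysis members called higher were 2 with only the compared arrays and 0 on all probe sets, with the mean of a gene's probe sets or with robust moderation. The share of all genes called in these settings is not given, so these counts are not read as particular to the members. In the GW2580 against vehicle comparison, genes called were 0 with only the compared arrays (where 2120 of 13090 had an unadjusted limma p under 0.05), 74 without a filter, 111 on all probe sets, 75 with trend and 81 with robust moderation. Between GW2580 and 1-week vehicle they were 24 with only the compared arrays and 32 on all probe sets. There the hypoxia members called higher were 0 with only the compared arrays or all probe sets, 2 without a filter or with the filter at the 50th percentile, and 3 at a common 75th percentile or with trend.

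With each array left out, genes called ranged from 0 to 1059 over time, 0 to 167 with GW2580 against vehicle, and 0 to 169 with GW2580 against 1 week. Hypoxia members called higher ranged from 0 to 5, 0 to 0 and 0 to 6, and those called lower from 0 to 0, 0 to 1 and 0 to 0. Glycolysis members called higher ranged from 0 to 2, 0 to 0 and 0 to 2. Hypoxia medians ranged from 0.51 to 0.72, 8e-06 to 0.32 and 0.66 to 1.19, and glycolysis medians from -0.02 to 0.17, 0.10 to 0.35 and 0.17 to 0.42. The cause of these changes was not tested.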

Other observations

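In every group, the array labelled replicate 2 read higher than replicate 1 for most members. Of 17 hypoxia members this held for 14 in the GW2580 group, 16 in the 2-week vehicle group and 12 in the 1-week vehicle group, and of 17 glycolysis members for 15, 14 and 12. Over all genes tested the shares were 60.6%, 57.5% and 54.8%. The median replicate 2 minus replicate 1 difference of hypoxia members was 0.60, 0.23 and 0.32 in these groups. No label says what the number stands for.

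Cell cycle genes differed in the opposite direction from the hypoxia members over time. Of 9 tested, 6 fell and 0 rose between 1 and 2 weeks in vehicle mice, with a median of -0.99, where 2.71% of all genes were called lower, 3.74% higher and the median over all genes was 0.02. They averaged 10.17 and 9.79 on the GW2580 arrays, 9.61 and 9.74 on the 2-week vehicle arrays, and 10.83 and 10.62 on the 1-week vehicle arrays.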
